A study of Homo sapiens with 6 samples.

Results

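Autophagy and lysosome genes were examined as a group of 41 genes chosen by symbol, of 11963 genes with a single symbol on the array. The choice was made with earlier results of these data known, so counts of them set against all genes describe the group and are not a test. All 41 were measured, by 77 probe sets, and where a gene had several, the brightest on average was used. The cells were A549, an established human lung adenocarcinoma line with features of the alveolar epithelium. The groups held 2 arrays each: cells transfected with a pCMV5 plasmid that encodes human PIAS3, cells transfected with an siRNA against STAT3, and EGF-stimulated cells that were not transfected, called the control here. PIAS3, an E3 ligase for SUMO, binds the transcription factor STAT3 and blocks its activity. The design text puts all groups in serum-free medium followed by EGF, while the titles name EGF for the control alone. A seeding time of 12 h and 10% fetal bovine serum are recorded for all samples. The transfected cells were harvested for RNA 48 h after transfection, and no such time is listed for the control. The control received neither a plasmid nor an siRNA, so an effect of transfection and an effect of PIAS3 or of the siRNA cannot be told apart. Nothing in the labels states that replicates were separate cultures, so the spread between the 2 arrays of a group may be technical. A p-value here rests on that spread pooled over all groups, including the group not compared, and drawn towards the spread typical of all probe sets.

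Autophagy encloses cytoplasm in a double membrane, the autophagosome, which then fuses with the lysosome, where acid hydrolases digest the cargo. The ULK1 kinase complex starts the process and is held in check by the kinase mTOR, a lipid kinase complex built on Beclin 1 then marks the membrane with phosphatidylinositol 3-phosphate, and ubiquitin-like ATG8 proteins are attached to it. TFEB and TFE3 are transcription factors that switch on lysosomal and autophagy genes when nutrients are scarce, and STAT3 has been described as a repressor of autophagy in several cell types.

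The levels are log2 values, and a difference of 1 is a doubling. The array medians lay between 6.63 and 6.72. STAT3 stood at 10.18 and 9.70 with PIAS3 and 10.23 and 9.94 with its siRNA, against 10.50 and 10.43 in untransfected controls, and its difference from the control was -0.53 ± 0.18 (standard error of the fit) with PIAS3 and -0.38 ± 0.18 with the siRNA (limma adjusted p of 0.254 and 0.9998). The PIAS3 transcript itself stood 0.04 ± 0.11 from the control under the plasmid and -0.13 ± 0.11 under the siRNA, and whether its probe set reads the plasmid's transcript is not stated. Of 5 epithelial markers, the keratins KRT8 and KRT18 read between 12.39 and 13.79 in all arrays, while the other 3 stood away from the control with PIAS3: KRT19 by -1.91 ± 0.38, EPCAM by -0.66 ± 0.32 and CDH1 by 1.09 ± 0.16 (adjusted p of 0.104, 0.424 and 0.0762). The 8 leukocyte markers read between 3.39 and 7.09, so several were above the 3.26 to 3.93 of control probe sets whose transcript is absent, although PTPRC (3.85 to 3.95) was near it. CD14 stood 0.84 ± 0.13 above the control with PIAS3 (limma adjusted p = 0.0792) and CD3E 0.26 ± 0.17. Of the 8, 6 lay above the control with PIAS3 (median 0.05) and 2 below it, CSF1R (-0.17 ± 0.12) and LYZ (-0.07 ± 0.10). The median PIAS3 difference was -0.04 over 8 fibroblast markers and 0.02 over 6 endothelial markers. The part of these markers in the results was not tested. All 41 autophagy and lysosome genes read above the range of the absent transcript in every array, the lowest value being 5.62 (ATG2B, PIAS3 replicate 2). PIAS3 replicate 1 stood apart: 26 of 26 interferon-stimulated genes lay above the control mean there, with a median difference of 3.81, against -0.04 in PIAS3 replicate 2 and -0.07 and 0.02 in the siRNA arrays. The poly-A spike-in probe sets of that array lay 1.41 above the control mean, against -0.13 in PIAS3 replicate 2. The gap between the 3′ and 5′ actin probe sets, a sign of RNA quality, was 0.43 and 0.28 with PIAS3 and 0.16 and 0.23 with the siRNA, against 0.12 and 0.10 in untransfected controls. The same gap for GAPDH was 0.40 and 0.37 with PIAS3 and 0.29 and 0.40 with the siRNA, against 0.36 and 0.29 in untransfected controls. For GAPDH the siRNA arrays thus overlapped the controls, while the PIAS3 arrays lay slightly above them. The part of RNA quality in the results was not tested. The differences of ULK1, WIPI1 and CTSL are also given without PIAS3 replicate 1, and those of the other genes are not.

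The question put to the first comparison is which autophagy and lysosome genes differed in cells given the PIAS3 plasmid. The kinase ULK1 and the membrane-binding protein WIPI1 stood 1.73-fold and 1.61-fold above the control, the lysosomal protease CTSL 1.94-fold and the cholesterol exporter NPC1 1.53-fold above it. Of the 41 genes, 28 lay above the control and 13 below, with a median log2 difference of 0.09, against -0.0043 over all genes. None of the 41 passed an adjusted p of 0.05, which 0.125% of all genes did, and the lowest was 0.0853 for ULK1 (limma, Benjamini-Hochberg over all probe sets). At an unadjusted p under 0.05, 13 were higher and 1 was lower, where 7.13% and 7.44% of all genes were. Both PIAS3 arrays lay above both controls for 20 of the 41 and below them for 6, against 22.4% and 23.7% of all genes. The counts at an unadjusted p under 0.05 changed when some arrays were left out, and the share of all genes was not counted there. In these bulk samples, fewer cells that express a gene and less RNA per cell cannot be told apart. The median became 0.13 without PIAS3 replicate 2 and 0.16 without control replicate 2.

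**Figure D1:**
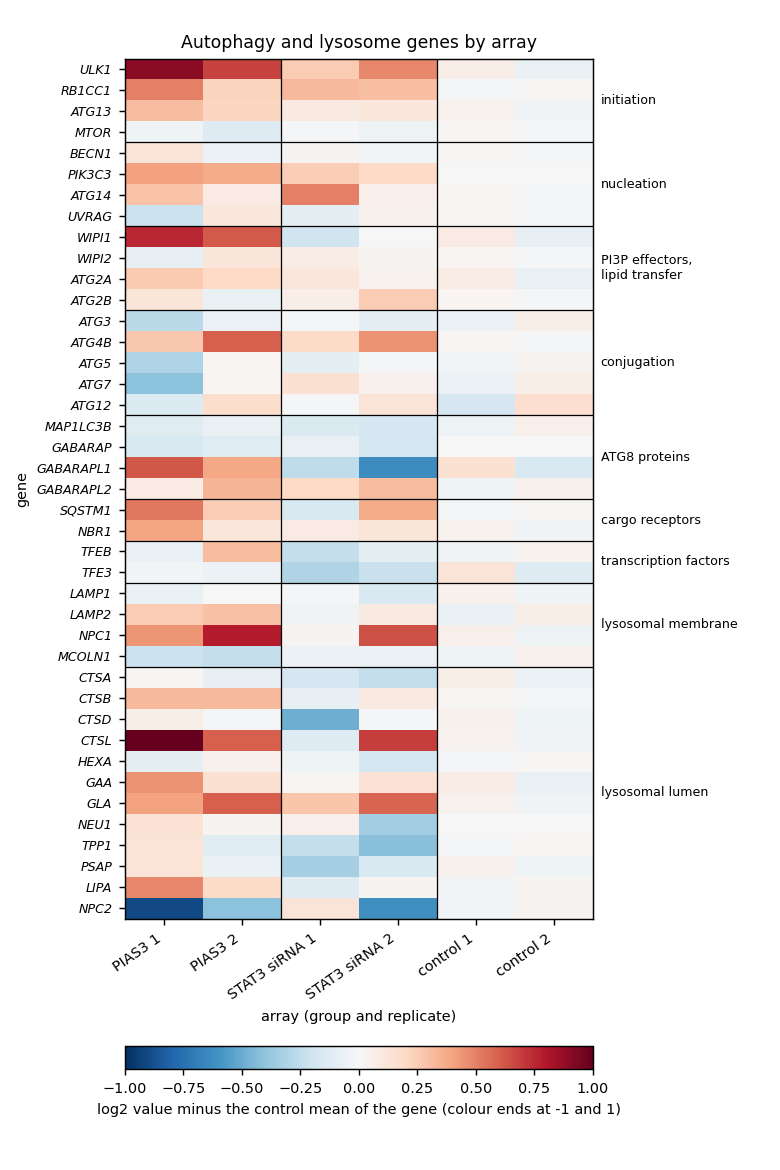
Colour map of the log2 value of each of the 41 genes (rows, grouped by role) in each of the 6 arrays (columns), minus that gene's control mean. Red is above and blue below the control mean, colours end at -1 and 1, and the row of ULK1 is red in all 4 transfected arrays while that of WIPI1 is red in the PIAS3 arrays.

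The initiation complex held the member with the smallest p. ULK1, the serine/threonine kinase that triggers autophagosome formation, read 8.83 and 8.60 with PIAS3 and 8.18 and 8.41 with the STAT3 siRNA, against 7.99 and 7.86 in untransfected controls. All 4 transfected arrays lay above both controls, and the PIAS3 arrays lay above the siRNA arrays. The log2 difference from the control was 0.79 ± 0.14 with PIAS3 (adjusted p = 0.0853) and 0.37 ± 0.14 with the siRNA (adjusted p = 0.9998). Without PIAS3 replicate 1, the array with the raised interferon genes, the PIAS3 difference of ULK1 was 0.67. Without PIAS3 replicate 2 it was 0.91, a value that rests on PIAS3 replicate 1 alone. ULK1 has a single probe set, so no second one checks it. The 250 bases before its start in RefSeq (GRCh38.p14, chr12:131894372-131894621, plus strand) are shown together with those of WIPI1 (chr17:68457497-68457746, minus strand), the member of next smallest p, written 5′ to 3′ on the gene's strand. The capitals mark GGGCGG, the core of the GC box that Sp-family factors bind, on either strand.
ULK1: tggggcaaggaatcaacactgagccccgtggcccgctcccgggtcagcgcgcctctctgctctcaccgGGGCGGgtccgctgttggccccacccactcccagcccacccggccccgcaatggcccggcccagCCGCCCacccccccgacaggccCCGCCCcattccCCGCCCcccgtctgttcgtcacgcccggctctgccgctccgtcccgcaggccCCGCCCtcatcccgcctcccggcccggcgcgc
WIPI1: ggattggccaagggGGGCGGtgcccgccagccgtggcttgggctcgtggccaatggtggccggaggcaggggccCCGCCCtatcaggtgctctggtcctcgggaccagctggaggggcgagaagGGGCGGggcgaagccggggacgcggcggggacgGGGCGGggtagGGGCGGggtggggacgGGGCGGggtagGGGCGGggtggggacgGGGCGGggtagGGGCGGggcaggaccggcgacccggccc
The stretch of ULK1 holds 5 matches and that of WIPI1 holds 9, several of them in a short tandem repeat that reads G-rich on the gene's strand. At least 1 match was found in 44.9% of all 35093 promoter windows of 300 bases (250 before the start to 50 after it). It was found in 36 of 45 windows of the 35 members that the table held. The other pathway genes, from 5 lists described below, were close to the members, with a match in 96 of 130 windows. The whole WIPI1 window, singled out after its sequence was seen, holds 10 matches, as it includes a match after the start. A count of 10 or more was found in 0.214% of all windows. High counts were not limited to genes above the control with PIAS3: the windows of NPC2, which stood -0.66 ± 0.25 from the control, held 9 and 7 matches, and that of CTSD, which stood 0.02 ± 0.16 from the control, held 5.

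RB1CC1, the scaffold of the ULK1 complex also known as FIP200, read 8.90 and 8.62 with PIAS3 and 8.73 and 8.70 with the STAT3 siRNA, against 8.39 and 8.41 in untransfected controls. It was above both controls in every transfected array, by 0.36 ± 0.12 with PIAS3 and 0.31 ± 0.12 with the siRNA (adjusted p of 0.257 and 0.9998), and its other probe set gave 0.35 ± 0.11 and 0.25 ± 0.11. ATG13, the subunit that links the kinase to RB1CC1, differed from the control by 0.26 ± 0.10 with PIAS3 (adjusted p = 0.330) and 0.10 ± 0.10 with the siRNA. One dimmer ATG13 probe set gave 0.46 ± 0.15 with PIAS3 and -0.0055 ± 0.15 with the siRNA. MTOR, the kinase that restrains the complex, stood at -0.09 ± 0.10 with PIAS3 and -0.03 ± 0.10 with the siRNA, with 95% intervals of -0.33 to 0.15 and -0.27 to 0.21.

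The nucleation genes encode the lipid kinase complex. Its catalytic subunit PIK3C3, also known as VPS34, read 7.87 and 7.84 with PIAS3 and 7.71 and 7.66 with the siRNA, against 7.46 and 7.46 in untransfected controls. The groups did not overlap, and the difference from the control was 0.39 ± 0.10 with PIAS3 (adjusted p = 0.157) and 0.22 ± 0.10 with the siRNA (adjusted p = 0.9998). The other PIK3C3 probe set, which is dimmer, gave 0.0048 ± 0.14 and 0.0063 ± 0.14, and the mean of both gave 0.20 with PIAS3. The partners of PIK3C3 lay closer to the control in the PIAS3 arrays: Beclin 1 (BECN1) differed by 0.04 ± 0.11, the autophagy-specific subunit ATG14 by 0.18 ± 0.16 and the alternative subunit UVRAG by -0.05 ± 0.14.

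WIPI proteins bind phosphatidylinositol 3-phosphate on the forming membrane, and ATG2 proteins feed it with lipid. WIPI1 read 8.31 and 8.17 with PIAS3 and 7.35 and 7.56 with the siRNA, against 7.64 and 7.47 in untransfected controls. Both PIAS3 arrays were above the other 4, while the siRNA arrays overlapped the controls. The difference from the control was 0.68 ± 0.13 with PIAS3 (adjusted p = 0.0937) and -0.10 ± 0.13 with the siRNA, and the other WIPI1 probe set gave 0.65 ± 0.14 and 0.03 ± 0.14. Without PIAS3 replicate 1 the PIAS3 difference was 0.62. Without PIAS3 replicate 2 it was 0.75, a value that rests on the array with the raised interferon genes alone. Its close relative WIPI2, which recruits the conjugation machinery, gave 0.02 ± 0.11 with PIAS3 and 0.05 ± 0.11 with the siRNA. ATG2A stood at 0.23 ± 0.11 with PIAS3 and ATG2B at 0.02 ± 0.12.

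**Figure D2:**
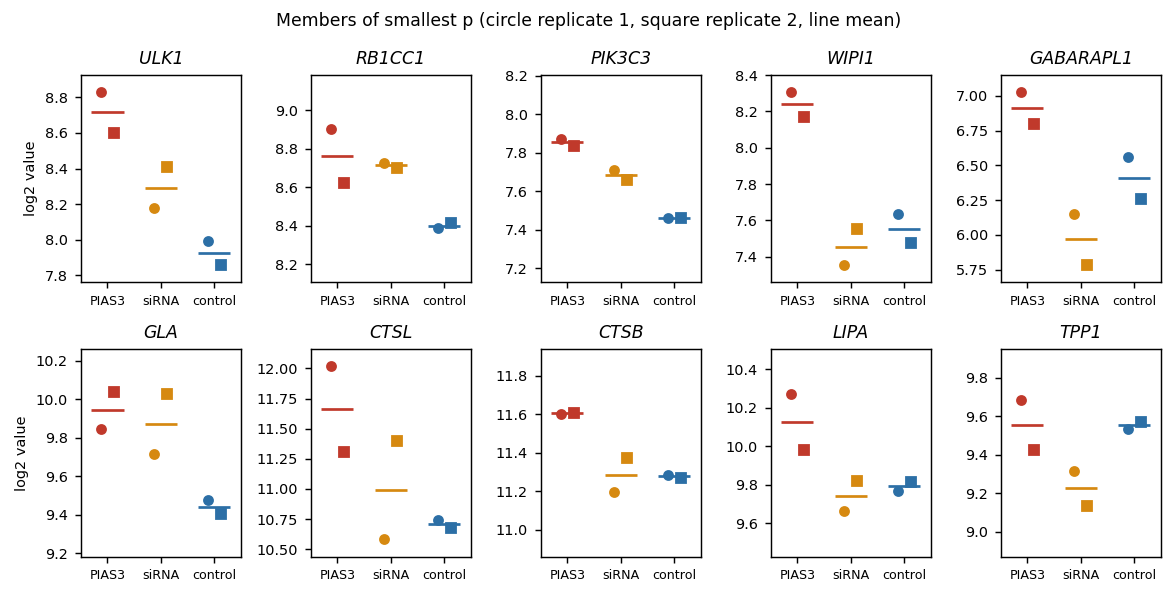
Log2 values of the 10 genes with the smallest p in any of the 3 comparisons, per array, with PIAS3, STAT3 siRNA (labelled siRNA) and control from left to right and a y axis of its own for each gene. Circles are replicate 1, squares replicate 2 and lines group means; the PIAS3 values of WIPI1 (8.31 and 8.17) lie above the other 4 arrays.

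Genes of the conjugation machinery, which attaches ATG8 proteins to lipid, did not share a direction. ATG4B, the protease that prepares ATG8 proteins, read 9.14 and 9.47 with PIAS3 and 9.07 and 9.32 with the siRNA, against 8.89 and 8.85 in untransfected controls. It lay above both controls in every transfected array, by 0.43 ± 0.15 with PIAS3 and 0.32 ± 0.15 with the siRNA (adjusted p of 0.258 and 0.9998). Its other probe sets gave 0.24 ± 0.17 and 0.31 ± 0.19 with PIAS3. ATG3, ATG5, ATG7 and ATG12, the conjugating enzymes and their ubiquitin-like partner, lay between -0.20 and 0.02 of the control with PIAS3 and between -0.06 and 0.10 with the siRNA, and 0 of these 4 had an unadjusted p under 0.05 in either comparison in limma.

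Among the ATG8 proteins, which coat the membrane and bind cargo receptors, GABARAPL1 lay farthest from the control with either treatment. It read 7.03 and 6.80 with PIAS3 and 6.15 and 5.78 with the STAT3 siRNA, against 6.56 and 6.26 in untransfected controls. PIAS3 arrays were highest and siRNA arrays lowest, with no overlap. The differences from the control were 0.51 ± 0.17 with PIAS3 (adjusted p = 0.255) and -0.44 ± 0.17 with the siRNA (adjusted p = 0.9998). The siRNA difference became -0.26 without siRNA replicate 2 and -0.29 without control replicate 1. The second GABARAPL1 probe set read 6.49 and 6.45 with PIAS3 and 5.94 and 6.42 with the siRNA, against 6.21 and 6.13 in untransfected controls, so there the siRNA arrays lay on both sides of the controls (0.0071 ± 0.16). GABARAPL1 has a near-identical copy, GABARAPL3, with which 1 more probe set is shared and left unnamed, so its values are uncertain. MAP1LC3B (LC3B) and GABARAP stood at -0.10 ± 0.10 and -0.14 ± 0.10 with PIAS3 and at -0.15 ± 0.10 and -0.13 ± 0.10 with the siRNA, and all 4 transfected arrays lay below both controls for each of them by these probe sets. In the dimmer MAP1LC3B probe set the groups overlapped, with -0.14 ± 0.15 for PIAS3 and -0.0080 ± 0.15 for the siRNA. GABARAPL2 stood at 0.21 ± 0.13 with PIAS3 and 0.26 ± 0.13 with the siRNA.

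The cargo receptor SQSTM1 (p62), which carries ubiquitinated cargo into autophagosomes and is itself degraded with it, read 11.94 and 11.66 with PIAS3 and 11.26 and 11.78 with the siRNA, against 11.40 and 11.42 in untransfected controls. The difference with PIAS3 was 0.39 ± 0.18 (adjusted p = 0.415), and the dimmer SQSTM1 probe set gave 0.69 ± 0.22. With the siRNA the arrays lay on both sides of the controls (0.11 ± 0.18). NBR1, a related receptor, stood at 0.25 ± 0.13 with PIAS3 and 0.10 ± 0.13 with the siRNA, and its other probe set gave 0.03 ± 0.12 with PIAS3.

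The transcription factors of the lysosomal gene network lay near the control in the PIAS3 arrays. TFEB read 6.85 and 7.24 with PIAS3 and 6.69 and 6.83 with the siRNA, against 6.89 and 6.96 in untransfected controls, a difference of 0.12 ± 0.15 with PIAS3 and -0.17 ± 0.15 with the siRNA. TFE3 read 10.24 and 10.21 with PIAS3 and 9.97 and 10.04 with the siRNA, against 10.39 and 10.14 in untransfected controls, with -0.05 ± 0.12 and -0.26 ± 0.12. By these probe sets both siRNA arrays were below both controls for each gene, with an adjusted p of 0.9998. The second TFE3 probe set gave -0.12 ± 0.11 with the siRNA, but the second TFEB probe set had the opposite sign, with 6.67 and 6.77 for the siRNA above the 6.62 and 6.60 of the controls (0.11 ± 0.10). TFEB acts through its location in the cell as well as its level, which an array does not measure. These factors bind the CLEAR element, a palindrome whose core TCACGTGA was found in the promoter windows of 5 members. It was present in 5 of 45 member windows, 10 of 130 windows of the other pathway genes, and 0.98% of all 35093 windows. The 4 members with a match before the start are shown over their last 100 bases before it, from RefSeq (GRCh38.p14), with the core in capitals: CTSA (chr20:45891235-45891334, plus strand), GAA (chr17:80101481-80101580, plus strand), LAMP1 (chr13:113297139-113297238, plus strand) and MCOLN1 (chr19:7522524-7522623, plus strand).
CTSA: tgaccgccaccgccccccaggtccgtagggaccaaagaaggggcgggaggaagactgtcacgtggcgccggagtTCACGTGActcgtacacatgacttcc
GAA: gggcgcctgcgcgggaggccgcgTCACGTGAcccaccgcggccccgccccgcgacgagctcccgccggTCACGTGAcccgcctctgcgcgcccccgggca
LAMP1: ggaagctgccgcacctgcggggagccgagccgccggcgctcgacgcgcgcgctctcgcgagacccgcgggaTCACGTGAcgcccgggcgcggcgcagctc
MCOLN1: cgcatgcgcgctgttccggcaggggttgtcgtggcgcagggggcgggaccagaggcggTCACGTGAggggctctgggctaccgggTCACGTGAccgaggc
GAA and MCOLN1 carry 2 matches each in these stretches and CTSA and LAMP1 carry 1, and another in LAMP1 spans the start itself. The level of these genes in the PIAS3 arrays differed from the control by -0.04 ± 0.11 for CTSA, 0.30 ± 0.14 for GAA, -0.04 ± 0.11 for LAMP1 and -0.23 ± 0.10 for MCOLN1. ATG3, with its match just after the start, differed by -0.16 ± 0.12. The ULK1 and WIPI1 sequences shown above hold no such core. The wider E-box CACGTG, which every CLEAR core contains, was in 8 of 45 member windows, 20 of 130 windows of the other pathway genes and 7.26% of all windows. The STAT motif TTCNNNGAA was in 2 of 45 member windows (ATG5 and GABARAPL2), 6 of 130 windows of the other pathway genes and 7.66% of all. Each motif was searched on both strands.

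Lysosomal membrane proteins differed from one another. NPC1, which exports cholesterol from the lysosome, read 8.91 and 9.25 with PIAS3 and 8.50 and 9.10 with the siRNA, against 8.51 and 8.42 in untransfected controls. Its difference was 0.61 ± 0.21 with PIAS3 (adjusted p = 0.259) and 0.33 ± 0.21 with the siRNA, where replicate 2 alone stood above the controls. The other NPC1 probe set, with a mean level of 4.10 near the range of the absent transcript, gave 0.02 ± 0.14 with PIAS3 and -0.08 ± 0.14 with the siRNA. LAMP2, a receptor of chaperone-mediated autophagy and a structural protein of the membrane, stood at 0.28 ± 0.11 with PIAS3 and 0.03 ± 0.11 with the siRNA (adjusted p of 0.329 and 0.9998). Its relative LAMP1 stood at -0.04 ± 0.11 and -0.08 ± 0.11 by its brightest probe set. Of the 3 dimmer LAMP1 probe sets, 1 gave -0.45 ± 0.14 with PIAS3 and the others -0.07 each. MCOLN1, the calcium channel of the lysosome, read 7.42 and 7.40 with PIAS3, against 7.60 and 7.68 in untransfected controls, below both.

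The soluble hydrolases and their helpers made up 12 members. Of these, 4 were higher and 1 lower in the PIAS3 arrays at an unadjusted p under 0.05, where 7.13% and 7.44% of all genes were. CTSL (cathepsin L), a cysteine protease, had the largest PIAS3 difference of the 41 genes and read 12.02 and 11.30 with PIAS3 and 10.58 and 11.40 with the siRNA, against 10.74 and 10.68 in untransfected controls. PIAS3 lay above the controls in both arrays, by 0.95 ± 0.30 (adjusted p = 0.234), while the siRNA arrays lay on both sides of them (0.28 ± 0.30). The PIAS3 difference was 0.59 without PIAS3 replicate 1. The last 100 bases before the CTSL start (chr9:87726019-87726118, plus strand, GRCh38.p14) are shown with the antioxidant response element TGACNNNGC, the site of the NRF2 factor, in capitals on the opposite strand.
CTSL: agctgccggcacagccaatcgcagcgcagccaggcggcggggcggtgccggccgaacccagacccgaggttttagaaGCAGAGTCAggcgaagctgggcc
That motif was in 9 of 45 member windows, 28 of 130 windows of the other pathway genes and 13.4% of all windows.

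GLA, the alpha-galactosidase that splits globotriaosylceramide, read 9.85 and 10.04 with PIAS3 and 9.72 and 10.03 with the siRNA, against 9.48 and 9.40 in untransfected controls. It stood above both controls in all 4 transfected arrays, by 0.50 ± 0.14 with PIAS3 (adjusted p = 0.188) and 0.43 ± 0.14 with the siRNA (adjusted p = 0.935). CTSB (cathepsin B) read 11.60 in both PIAS3 arrays and 11.19 and 11.37 with the siRNA, against 11.29 and 11.27 in untransfected controls. The PIAS3 difference of CTSB was 0.33 ± 0.11 (adjusted p = 0.254), and its other 3 probe sets gave 0.28 to 0.35. LIPA, the acid lipase of the lysosome, read 10.27 and 9.98 with PIAS3 and 9.66 and 9.82 with the siRNA, against 9.77 and 9.81 in untransfected controls (0.33 ± 0.13 with PIAS3, adjusted p = 0.325). NPC2, the soluble cholesterol carrier that hands its load to NPC1, was the 1 member lower at an unadjusted p under 0.05, and read 10.77 and 11.26 with PIAS3 and 11.80 and 11.06 with the siRNA, against 11.64 and 11.70 in untransfected controls. Its PIAS3 difference was -0.66 ± 0.25 (adjusted p = 0.315), opposite in sign to that of NPC1. GAA, the acid alpha-glucosidase, stood at 0.30 ± 0.14, and CTSA, CTSD, HEXA, NEU1, TPP1 and PSAP lay between -0.04 and 0.09 of the control with PIAS3.

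In the comparison of the STAT3 siRNA with the control, which asks what differed in cells given the siRNA, the group as a whole lay around the control. Of the 41 genes, 20 were above it and 21 below, with a median difference of -0.0018, against -0.0015 over all genes, and 0.03 without siRNA replicate 1. None passed the adjusted threshold, which 0.00836% of genes did. At an unadjusted p under 0.05, 3 were higher (GLA, ULK1 and RB1CC1) and 2 lower (GABARAPL1 and TPP1), where 2.32% and 3.06% of all genes were. Both counts changed when some arrays were left out, where the share of all genes was not counted. Both siRNA arrays lay above both controls for 11 genes and below them for 11, against 19.4% and 19.5% of all genes.

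Of the 12 proteins of the lysosomal lumen, 8 lay below the control with the siRNA, among them PSAP and NPC2, which are not hydrolases, and 4 lay above it (CTSB, CTSL, GAA and GLA). Over all genes, 6037 of 11963 lay below. TPP1, a tripeptidyl peptidase, read 9.31 and 9.14 with the siRNA, below the 9.53 and 9.57 of the controls. With PIAS3 it read 9.68 and 9.43, on both sides of those controls. Its siRNA difference was -0.33 ± 0.13, and its other probe sets gave -0.29 ± 0.20, -0.02 ± 0.12 and -0.18 ± 0.14. PSAP, the precursor of the saposins that present lipids to hydrolases, stood at -0.24 ± 0.12, and CTSA, which protects other hydrolases, at -0.20 ± 0.11. Both siRNA arrays lay below both controls for TPP1, PSAP and CTSA. Among the 27 measured hydrolases and activators outside the 41, 18 lay below the control and 9 above, with a median of -0.12. The fucosidase FUCA1 read 8.25 and 8.11 with the siRNA, against 8.58 and 8.59 in untransfected controls (-0.40 ± 0.11, adjusted p = 0.762), and the protease CTSS stood at -0.67 ± 0.27 (adjusted p = 0.9998).

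The siRNA arrays differed from each other in several members. CTSL read 0.82 higher in siRNA replicate 2 than in replicate 1, NPC1 0.61 and SQSTM1 0.52, while NPC2 read -0.74. These 4 genes, named for that gap after their values were seen, had siRNA replicate 1 nearer the control mean and siRNA replicate 2 nearer the PIAS3 mean. Over all 41 genes there was no such lean for siRNA replicate 2, which was nearer the PIAS3 mean in 21 and nearer the control mean in 20, while siRNA replicate 1 was nearer PIAS3 in 16 and nearer the control in 25. Over all probe sets, siRNA replicate 2 differed with an SD of 0.19 from PIAS3 replicate 2, 0.36 from PIAS3 replicate 1, 0.25 from siRNA replicate 1 and 0.26 from each control, and siRNA replicate 1 differed with an SD of 0.20 from control replicate 2. The keratin KRT19 had the same pattern and read 9.02 and 9.34 with PIAS3 and 10.76 and 9.42 with the siRNA, against 11.16 and 11.02 in untransfected controls. Its part in these values was not tested. The median gap between the arrays of a group over the 41 genes was 0.20 for PIAS3 and 0.13 for the siRNA, against 0.07 for the control, near the 0.17, 0.14 and 0.09 of all genes.

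**Figure D3:**
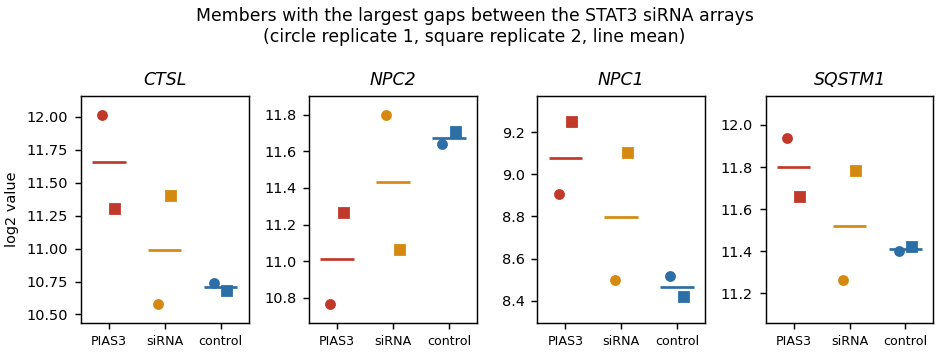
Log2 values per array of the 4 genes with the largest gap between the STAT3 siRNA arrays, with PIAS3, STAT3 siRNA (labelled siRNA) and control from left to right. Circles are replicate 1, squares replicate 2 and lines group means; siRNA replicate 2 lies near the PIAS3 arrays and siRNA replicate 1 near the controls in each panel.

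The direct comparison of PIAS3 with the STAT3 siRNA asks whether the treatments differed from each other. Of the 41 genes, 28 were higher with PIAS3 and 13 lower, with a median difference of 0.15, against -0.0016 over all genes. None passed the adjusted threshold, which 0.0% of genes did, and 6 were higher and 0 lower at an unadjusted p under 0.05 in limma, where 4.19% and 3.83% of all genes were. These counts also changed when some arrays were left out, again without a share of all genes to set beside them. Both PIAS3 arrays lay above both siRNA arrays for 17 of the 41 and below them for 2, against 17.0% and 17.5% of all genes. WIPI1 was higher with PIAS3 by 0.78 ± 0.13, GABARAPL1 by 0.95 ± 0.17 and ULK1 by 0.42 ± 0.14 (adjusted p = 0.607 for each). The others of the 6 were CTSB (0.32 ± 0.11), LIPA (0.39 ± 0.13) and TPP1 (0.33 ± 0.13). Both PIAS3 arrays lay above both siRNA arrays in each of these 6 genes. Over the 16 lysosomal members the median was 0.24, with 14 above 0, and over the 25 autophagy members it was 0.05. For the second GABARAPL1 probe set the difference was 0.29 ± 0.16, and for the second WIPI1 probe set 0.62 ± 0.14. Over all alternatives the WIPI1 difference lay between 0.68 and 0.89.

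**Figure D4:**
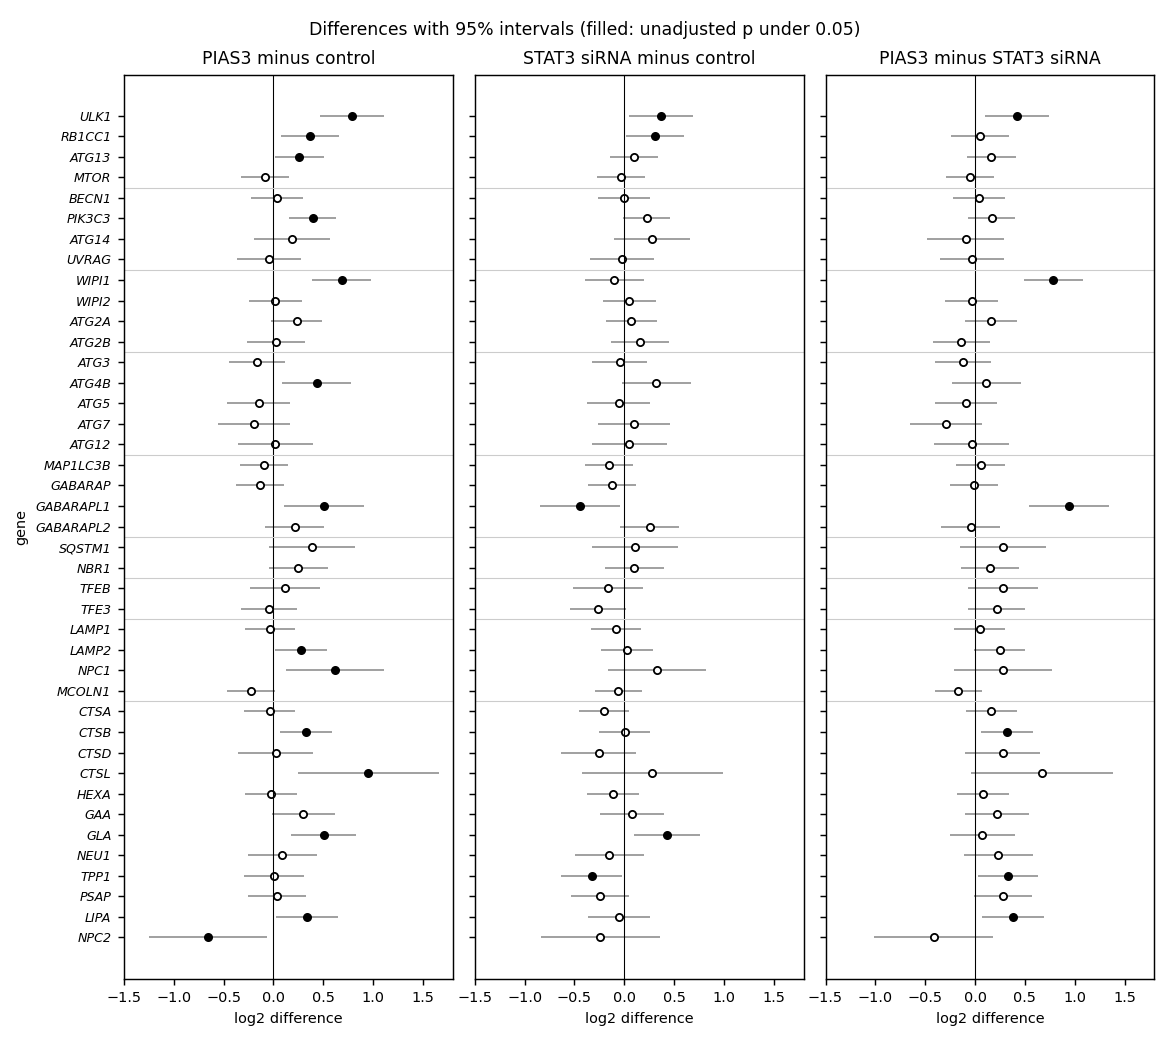
Log2 differences (points) with 95% intervals from the limma fit (lines) for the 41 genes in the 3 comparisons, in the same gene order as the colour map. Filled points have an unadjusted p under 0.05, which 13 higher and 1 lower gene had for PIAS3 against control, 3 and 2 for STAT3 siRNA against control, and 6 and 0 for PIAS3 against STAT3 siRNA.

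Agreement between probe sets differed by comparison. Of the 24 members with more than 1 probe set, all probe sets had the same sign in 21 for PIAS3 against control, in 14 for the siRNA against control and in 11 for PIAS3 against the siRNA. The 3 members with mixed signs for PIAS3 against control were ATG3 (-0.16 and 0.22), HEXA (-0.03 and 0.0070) and TPP1 (-0.26 to 0.01).

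Other genes of the pathway were read from 5 lists with 110 measured genes. With PIAS3, 8 were higher and 4 lower at an unadjusted p under 0.05, where 7.13% and 7.44% of all genes were, so the higher count was near that of all genes. The median difference was 0.0026, and 0 passed the adjusted threshold in limma. The genes named from these lists are those of smallest p. DDIT4, an inhibitor of mTORC1, read 10.47 and 10.45 with PIAS3 and 10.07 and 10.04 with the siRNA, against 9.89 and 9.97 in untransfected controls (0.53 ± 0.10 with PIAS3, adjusted p = 0.0973). DEPTOR, an inhibitory partner of mTOR, read 6.34 and 5.94 with PIAS3 and 5.89 and 5.92 with the siRNA, against 5.47 and 5.51 in untransfected controls (0.65 ± 0.15, adjusted p = 0.125). TSC1, a brake on the mTORC1 activator RHEB, stood at 0.47 ± 0.12 (adjusted p = 0.173), while its partner TSC2 stood at 0.02 ± 0.13. RRAGD, a GTPase that brings mTORC1 to the lysosome, stood at -0.43 ± 0.16 (adjusted p = 0.308). Over the 29 measured regulators of mTORC1 and AMPK the median was 0.04, with 16 above the control and 13 below.

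In the list of other autophagy genes, HDAC6 (0.52 ± 0.13), the scramblase ATG9A (0.39 ± 0.13) and the cargo receptor CALCOCO2 (0.30 ± 0.11) stood above the control with PIAS3. Of the lysosomal enzymes and activators outside the 41, the ganglioside activator GM2A (0.44 ± 0.13) and the sulfatase GALNS (0.45 ± 0.15) did so. Lower values were found for M6PR (-0.45 ± 0.13), a receptor that delivers hydrolases to the lysosome, and for the proton pump subunits ATP6V0A2 (-0.57 ± 0.19) and ATP6V0D1 (-0.44 ± 0.15). The adjusted p-values of these 8 genes lay between 0.151 and 0.297. Of the 15 measured subunits of the proton pump, which acidifies the lysosome, 6 lay above the control and 9 below with PIAS3 (median -0.05). With the siRNA, the receptor OPTN stood at -0.63 ± 0.18 and the fusion protein VAMP8 at -0.39 ± 0.10 (adjusted p of 0.823 and 0.762), and DEPTOR at 0.42 ± 0.15. Over the 110 genes, 1 was higher and 4 were lower with the siRNA at an unadjusted p under 0.05, against 2.32% and 3.06% of all genes. PIAS3 exceeded the siRNA in 5 and lay below it in 2 of the 110 by the same measure, against 4.19% and 3.83% of all genes. The higher were the PI3P-binding protein WDR45 (0.41), VAMP8 (0.31), OPTN (0.43), DDIT4 (0.41) and the transcription factor FOXO1 (0.32), and the lower were the conjugation protein ATG16L1 (-0.28) and M6PR (-0.36), with 0 past the adjusted threshold in either comparison in limma.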

How the data were processed

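Total RNA of 6 A549 samples was measured on 1-colour Affymetrix arrays. The values the authors deposited are log2 expression levels of probe sets, made by RMA per the submitters' processing notes, a method that corrects background, quantile-normalizes and summarizes probes. No version is given there. RMA evens out the overall distributions of the arrays, so a shift of all genes together would not show, and the array number limits the precision.

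Of 22277 probe sets, 62 controls were left out and 22215 tested. GEO's platform annotation gave 1 symbol for 19064, several for 1043 and none for 2108, and no gene was named from a probe set with several. Groups were compared in limma 3.58.1 (R 4.3.3) in a single fit of all 6 arrays, with empirical Bayes variances, 3 residual degrees of freedom and Benjamini-Hochberg adjustment over all probe sets. The threshold was an adjusted p of 0.05, and ± gives the standard error. A single-gene exact permutation test of 2 arrays against 2 cannot go below a two-sided p of 0.333. The fit was tested on simulated data. Promoter sequences were RefSeq's (GRCh38.p14), matched by symbol for 35 of the 41 genes, LAMP2, RB1CC1, PSAP, CTSB, UVRAG and HEXA being the others.

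The members and lists were chosen with earlier results of these data known. Array values were given for the 6 members of smallest p in each comparison, others being added for their role. From each other list, up to 3 genes per direction and comparison of smallest p were eligible, of which the text names those with an unadjusted p under 0.05. Alternatives were a replicate block, other normalizations, a filter on dim probe sets, other variance models, each pair of groups alone, averaging all probe sets of a gene, another threshold, and leaving out each array.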

Additional observations from a re-analysis of the deposited data

How the results depend on the processing

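The 18 differences of smallest p kept their direction under all 16 alternatives, but most of these could not reverse it. The replicate block, variance models, filter, separate pairs and threshold leave a difference as it was. Leaving out an array could not reverse it either, as the compared groups did not overlap in any of the 18. The direction was thus tested only by the other normalizations and, for genes with several probe sets, by their mean. Of 288 recomputed values 283 stayed on the same side of the threshold and 5 passed it, among them ULK1 and WIPI1 for PIAS3 against control at an adjusted p under 0.10, where 2 of the 41 genes were called. For PIAS3 against control, 22 probe sets were called. The count was 2 with the values quantile-normalized again, 2 with dim probe sets filtered out (40 of the 41 genes left), 39 with cyclic loess, 40 with robust variances, 262 with these groups fitted alone and 254 at an adjusted p under 0.10. The median of the 41 genes was 0.1211 with quantile normalization, 0.1200 with loess and 0.1022 with the filter, and 2 genes were lower with the mean of probe sets. For the siRNA against control, 1 probe set was called, with 0 after quantile normalization or loess and 3 with these groups alone. Lower genes numbered 1 with loess and 0 with the mean of probe sets, and higher genes 5 with these groups alone. For PIAS3 against the siRNA the median was 0.1855 with quantile normalization, 0.1952 with loess and 0.0841 with the mean of probe sets. The share of all genes at an unadjusted p under 0.05 was not counted in these settings, and the cause of these shifts was not tested.

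Leaving out each array in turn gave, for PIAS3 against control, 0 to 1232 probe sets called, 0 to 2 of the 41 genes called, 3 to 14 higher, 0 to 3 lower and a median of 0.0829 to 0.1556. For the siRNA against control it gave 0 to 5 probe sets, 0 to 0 genes called, 0 to 5 higher, 0 to 4 lower and a median of -0.0196 to 0.03. For PIAS3 against the siRNA it gave 0 to 544 probe sets, 0 to 1 genes called, 4 to 10 higher, 0 to 1 lower and a median of 0.1133 to 0.1501. A group left with 1 array is assumed to vary like the others. The share of all genes at an unadjusted p under 0.05 was not counted with an array left out. Whether the higher and lower counts moved apart from those of all genes is thus not known.

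Replicate numbers in the titles did not pair the samples: deviations from the group means correlated at 0.09 between PIAS3 and control, -0.06 between siRNA and control and -0.05 between PIAS3 and siRNA. With a replicate block, 2 probe sets were called for PIAS3 against control and 11 of the 41 genes were higher at an unadjusted p under 0.05. The share of all genes at that p was not counted with the block.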
